A study of Mus musculus with 6 samples.

Results

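The genes examined here encode the machinery of oxidative phosphorylation, and they were chosen by gene symbol alone. Symbols beginning with Nduf followed by a, b, c, s or v, with Sdha to Sdhd, Uqcr, Cox4i, Cox5, Cox6, Cox7, Cox8 or Atp5, together with Cyc1 and Cycs, gave 96 of the 18193 genes that had a probe set with a single symbol. By symbol, 44 of these were placed in complex I, 8 in II, 9 in III, 17 in IV and 17 in V. The last was Cycs. By function, 75 were subunits of a complex or its electron carrier, 13 were assembly factors or other non-subunit genes that share a prefix, and 8 were tissue-restricted isoforms. Of the 96 genes, 90 passed the filter on dim probe sets and were tested. The 6 that did not were Ndufa4l2, Ndufb4, Cox6a2, Cox7b2, Cox8b and Cox8c.

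YFP+ luminal mammary epithelial cells (MECs) were sorted by FACS from 3 MMTV-Cre;Runx1+/+;R26Y females (Runx1-WT) and 3 MMTV-Cre;Runx1L/L;R26Y females (Runx1-null), and RNA of each mouse was amplified and hybridized to 1 Affymetrix Mouse Genome 430 2.0 array. All 6 mice were adult virgins on a mixed B6/129/FVB background, and all carried both MMTV-Cre and R26Y, a Cre-activated YFP reporter at the Rosa26 locus. MMTV-Cre acts in selected subsets of MECs, so the sorted cells are those in which the transgene was or had been active. Littermates were used according to the methods, without a record here of the litter of each mouse. In these bulk samples fewer cells of a type and less RNA per cell cannot be told apart.

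Array medians ranged from 106.3 to 163.4 intensity units, and each array had 18.8% to 22.3% of its values below the floor of 19.335 that was applied before log2. The labelled cell type was visible in all 6 arrays, where the 12 luminal epithelial markers summed to between 82890 and 97500 units. None of the other lists of cell type markers was at the floor in full. The 6 Runx1 probe sets had log2 differences of -0.19 to 0.26, and the brightest read 4082, 3855 and 2015 in the Runx1-WT mice and 3473, 4820 and 2277 in the Runx1-null mice (exact permutation p = 0.80). Where these probe sets lie relative to the deleted part of Runx1 is not given in the sources used here, so they are no check of the genotype labels. By qRT-PCR, the paper reported Runx1 transcripts as lost from YFP+ MECs of the Runx1-null genotype. In YFP+ mature luminal cells of that genotype it reported them as only slightly lower.

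Oxidative phosphorylation takes place at the inner mitochondrial membrane. Complex I oxidizes NADH and complex II oxidizes succinate, both pass electrons through ubiquinone to complex III, and cytochrome c carries them on to complex IV, which reduces oxygen. Complexes I, III and IV pump protons, and complex V, the ATP synthase, uses the resulting gradient to make ATP. Many of the nuclear genes for these subunits have been linked to NRF1, to ETS factors such as GABP, and to ERR, CREB and YY1, and in epithelial cells they are counted among abundantly expressed housekeeping genes.

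Promoters of the genes were examined first for letters associated with these factors, since shared letters are something the choice by symbol did not use. RefSeq promoters (GRCm38.p6, 250 bases before to 50 bases after the annotated start) were matched by Entrez gene identifier for 79 of the 96 genes. The stretches shown were picked to give at least 1 example from each complex and cytochrome c, upstream of the start, with matches to GCGCANGCG (NRF1), CCGGAAG (ETS and GABP) or TGACGTCA (CREB) on either strand in capitals.
Cycs, chr6:50566610-50566750, minus strand: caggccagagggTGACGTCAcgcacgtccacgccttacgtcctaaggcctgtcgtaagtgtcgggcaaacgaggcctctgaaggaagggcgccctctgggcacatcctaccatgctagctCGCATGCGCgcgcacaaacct
Ndufs5, chr4:123718264-123718296, minus strand: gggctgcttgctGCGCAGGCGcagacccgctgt
Ndufa8, chr2:36049339-36049379, minus strand: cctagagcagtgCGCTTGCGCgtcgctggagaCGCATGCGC
Sdhd, chr9:50603877-50603940, minus strand: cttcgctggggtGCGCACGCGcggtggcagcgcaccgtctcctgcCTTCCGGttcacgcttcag
Uqcrh, chr4:116075071-116075092, minus strand: gagtatgccgcaCTTCCGGcca
Cox6a1, chr5:115348959-115349132, minus strand: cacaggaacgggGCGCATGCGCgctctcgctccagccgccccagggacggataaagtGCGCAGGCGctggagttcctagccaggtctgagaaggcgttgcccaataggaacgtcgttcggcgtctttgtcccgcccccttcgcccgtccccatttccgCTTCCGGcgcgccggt
Atp5g2, chr15:102671068-102671101, minus strand: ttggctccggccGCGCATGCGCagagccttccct
In Cox6a1 and Atp5g2 the capital run GCGCATGCGC holds a match on each strand that overlap each other.

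The NRF1 letters were found in the promoters of 23 of the 79 genes (29.1%), against 6.2% of all 32851 RefSeq promoters of the same length, 7.0% of all genes with a promoter and 15.0% of the 9785 tested genes with one. The ETS and GABP letters were found in 22 genes (27.8%), against 8.9% of all promoters, 9.9% of all genes and 19.8% of tested genes. Either of these was present in 38 genes and both were present in 7, among them Sdhd and Cox6a1. The YY1 letters AAGATGGCG were found in 7 genes (8.9%, against 1.4% of all promoters and 3.5% of tested genes), the ERR letters CAAGGTCA in 4 (5.1%, against 1.6% and 1.4%) and the CREB letters TGACGTCA in 4 (5.1%, against 1.8% and 3.6%). The letters TGTGGT, the core of the RUNX motif, were found in 10 genes (12.7%), against 16.8% of all promoters, 18.9% of all genes and 14.7% of tested genes. The ETS letters end and the YY1 letters begin with AAG, so matches of these can overlap. These are descriptions of letters within a fixed window, and a match is no evidence of a bound site.

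No gene of oxidative phosphorylation passed the test between Runx1-null and Runx1-WT cells, and the differences of most subunits were small. With limma across the 12151 genes tested, 0 genes had an adjusted p under 0.05 (0% of those tested), and the adjusted p of each of the 90 was 0.9997. At an unadjusted p under 0.05, limma gave 234 genes (1.93% of those tested) and none of the 90, whereas the methods' t-test gave 335 genes and 5 of the 90, of which 0 passed adjustment. The median log2 difference, Runx1-null minus Runx1-WT, was -0.039 over the 90 genes and -0.022 over all genes tested. Of the 90 genes, 23 lay above 0 and 67 below, so 25.6% were above 0 against 44.5% of all genes. The direction of this small offset depended on the scaling. When each array was scaled to the median of all its probe sets, 69 of the 90 lay above 0 and 21 below and their median was 0.052, while that of all genes was 0.069. Relative to the median of all genes the 90 stood at -0.017, a value that scaling by 1 factor per array cannot move. They stood at -0.052 after quantile normalization, and between -0.058 and -0.002 when single Runx1-null mice were left out. With the mean over all probe sets of a gene they stood at -0.004. Between the third mouse of each genotype, which had the higher animal numbers, the sign turned, to 0.062. Markers of other cell types moved both ways. All 8 tested endothelial markers (median -0.47, sums of 1738 to 1995 units in Runx1-WT and 1037 to 1585 in Runx1-null mice) and all 9 tested stromal markers lay below 0. Of the 8 tested basal and myoepithelial markers 6 lay above 0 (median 0.32, sums of 5421 to 13900 units in Runx1-WT and 5410 to 15050 in Runx1-null mice). The part of these cells in the offset was not tested.

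The genotypes did not overlap for 8 of the 90 genes (8.89%), all of them lower in Runx1-null cells. Over all genes tested, the genotypes did not overlap for 5.56%, with 3.47% lower and 2.08% higher in Runx1-null cells. The 8 genes were Ndufs8, Ndufb9, Ndufa1, Ndufs5 and Ndufa3 of complex I, Uqcr10 of complex III, Atp5g2 of complex V and Cox7a2l, whose product joins complexes III and IV into supercomplexes. This count also rested on the scaling. After scaling on the median of the tested genes, 0 of the 90 genes remained separated, against 5.74% of all genes. After scaling on all probe sets 1 was separated, against 3.48% of all genes, and after quantile normalization 11 were, against 5.42%. With the mean over all probe sets of a gene, 6 were separated, 5 of them among the 8, against 5.71% of all genes. With 3 mice against 3, the smallest exact permutation p for a single gene is 0.1, and each of the 8 genes had it.

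**Figure D1:**
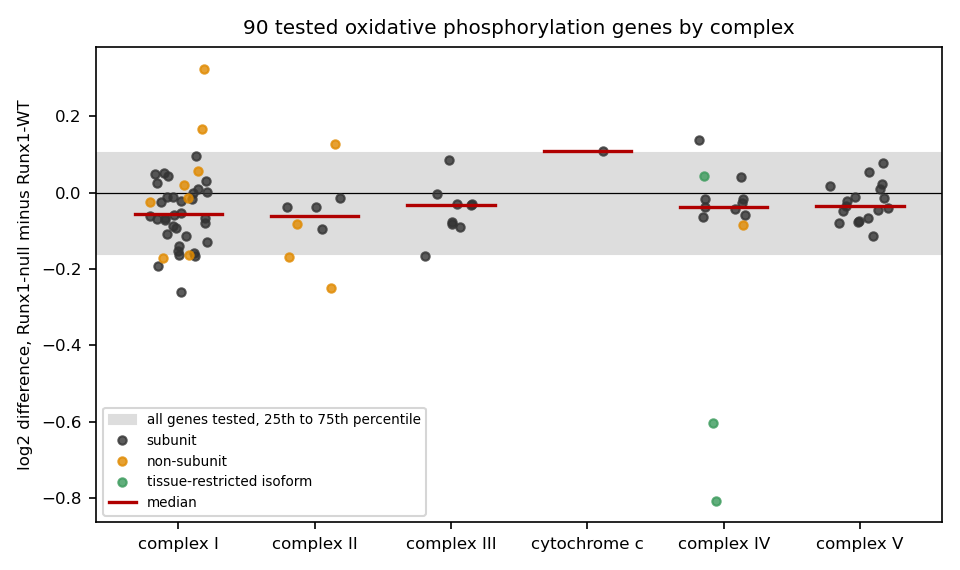
Each point is 1 of the 90 tested genes, placed by complex on the x axis, with its log2 difference in intensity (Runx1-null minus Runx1-WT, means of 3 mice each, values as deposited) on the y axis. Red bars are medians over each complex and the grey band spans the 25th to 75th percentile of all 12151 genes tested, from -0.16 to 0.10. Most subunits lie inside the band, Cox6b2 and Cox7a1 stand at -0.81 and -0.60, and all points move up together when arrays are scaled to the median of all probe sets.

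Complex I had a median log2 difference of -0.056 over its 42 tested genes, of which 12 lay above 0 and 30 below. Its 6 measured core genes, which encode core subunits, most with flavin or iron-sulfur clusters, had a median of -0.036 and differences of -0.14 to 0.048. The gene at the upper end was Ndufv1, for the subunit that binds NADH and FMN. Its intensities were 3235, 3342 and 3620 in Runx1-WT mice and 3444, 3458 and 3632 in Runx1-null mice. The genotypes overlapped, and the 95% interval of its fold was 0.882 to 1.21.

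At the lower end was Ndufs8, which encodes an iron-sulfur subunit of the arm that leads electrons towards ubiquinone. Its intensities were 4939, 5102 and 5146 in Runx1-WT mice and 4530, 4523 and 4738 in Runx1-null mice, a log2 difference of -0.14 with a standard error of 0.072. Every Runx1-null mouse lay below every Runx1-WT mouse. All 6 of its probe sets above the filter were below 0, and in 3 of them the genotypes did not overlap.

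Ndufb9, an accessory subunit of the membrane arm, read 4844, 4629 and 4584 in Runx1-WT mice and 4222, 4209 and 4217 in Runx1-null mice. Its log2 difference was -0.15 (standard error 0.075), and the 3 Runx1-null mice were nearly identical with an SD of 6.58 units. A second probe set for Ndufb9 also separated the genotypes, at -0.16. Ndufa3, another accessory subunit, had the smallest spread within a genotype of all 90 genes, an SD of 0.010 on the log2 scale. It read 5963, 5893 and 5919 in Runx1-WT mice and 5636, 5705 and 5726 in Runx1-null mice, so the groups were separated at a fold of 0.96 (95% interval 0.871 to 1.06).

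Ndufs5, a small accessory subunit, read 3246, 2962 and 2887 in Runx1-WT mice and 2355, 2880 and 2739 in Runx1-null mice. The highest Runx1-null value, 2880, lay just under the lowest Runx1-WT value, 2887, so the margin of separation was smaller than the spread within either genotype. Ndufa1 read 4077, 4616 and 4012 in Runx1-WT mice and 3663, 3798 and 3870 in Runx1-null mice, a log2 difference of -0.16 with a standard error of 0.094. The most negative difference of any subunit was that of Ndufa6, at -0.26 with a standard error of 0.12. Its intensities were 5604, 5284 and 4992 in Runx1-WT mice and 3780, 4437 and 5122 in Runx1-null mice. Here the genotypes overlapped, since the third Runx1-null mouse lay above the third Runx1-WT mouse.

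Assembly factors of complex I, which build it and are absent from the finished enzyme, held the 2 most positive differences of the complex. Ndufaf4 read 1139, 944.6 and 1384 in Runx1-WT mice and 1435, 1681 and 1213 in Runx1-null mice, a log2 difference of 0.32 with a standard error of 0.21 (exact permutation p = 0.20). The lowest Runx1-null mouse lay between the Runx1-WT mice, and a second probe set stood at 0.42. Ndufaf6 stood at 0.17 (standard error 0.26) and Ndufaf8 at -0.17 (standard error 0.16), each with overlapping genotypes. Over all 13 non-subunit genes the median was -0.023, with 5 above 0 and 8 below.

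Ndufb4 could not be tested, since its probe set with a single symbol read between 22.17 and 59.87 on all arrays, under the filter of 73.48. The 2 brighter candidates for Ndufb4 carry several symbols and were not used. In all, 10 probe sets with several symbols carried a matching symbol, among them those shared by Ndufs5 with a pseudogene and by Ndufa13 with Yjefn3.

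**Figure D2:**
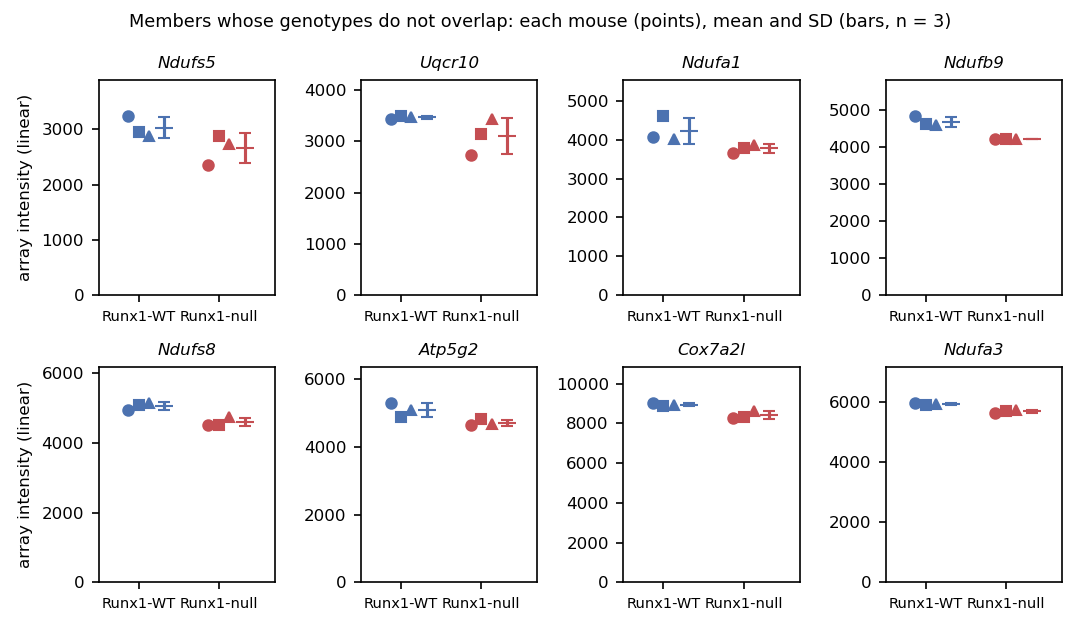
Array intensity on a linear scale that starts at 0, for the 8 genes in which no Runx1-null mouse (red) overlapped a Runx1-WT mouse (blue); points are single mice (circle, square and triangle for mouse 1, 2 and 3) and bars give mean and SD, n = 3. The gaps are small beside the level of each gene, with folds between 0.875 for Ndufs5 and 0.96 for Ndufa3, and 0 of the 8 stay separated when arrays are scaled on the median of the tested genes.

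Complex II, the succinate dehydrogenase that is also an enzyme of the TCA cycle, had a median of -0.061 over 8 genes, of which 1 lay above 0 and 7 below. Its 4 subunit genes differed little. Sdha, the flavoprotein subunit, read 5612, 5354 and 5056 in Runx1-WT mice and 4627, 5036 and 5344 in Runx1-null mice. Its log2 difference was -0.096 with a standard error of 0.086, and its 3 probe sets above the filter stood between -0.44 and 0.0016. Sdhb, the iron-sulfur subunit, stood at -0.014, and the membrane anchors Sdhc and Sdhd stood at -0.039 each. The 95% intervals of the 4 folds lay between 0.812 and 1.19.

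The assembly factors of complex II varied more between mice than its subunits did. Sdhaf1, needed to insert the iron-sulfur clusters of Sdhb, read 927.6, 590.5 and 1763 in Runx1-WT mice and 828.8, 946.7 and 730.8 in Runx1-null mice. Its log2 difference of -0.25 had a standard error of 0.39, and the Runx1-WT mice were both the lowest and the highest of the 6. Sdhaf2, which attaches the flavin to Sdha, stood at -0.082, Sdhaf3 at 0.13 and Sdhaf4 at -0.17, and the genotypes overlapped for all 3.

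Complex III had 1 gene above 0 and 8 below, with a median of -0.031. Uqcr10, a small accessory subunit, was the only one whose genotypes did not overlap. It read 3431, 3493 and 3478 in Runx1-WT mice and 2736, 3145 and 3427 in Runx1-null mice, a log2 difference of -0.17 with a standard error of 0.12. The highest Runx1-null value, 3427, lay just under the lowest Runx1-WT value, 3431. All 3 of its probe sets above the filter were below 0, but only in 1 of them did the genotypes not overlap. Uqcr11 and Uqcrq stood at -0.091 and -0.082, each with overlapping genotypes. The large core proteins Uqcrc1 and Uqcrc2 stood at -0.030 and -0.0028, and the Rieske iron-sulfur protein Uqcrfs1 at -0.031.

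The heme proteins that hand electrons from complex III to complex IV had values above 0, which came close to 0 when 1 mouse was left out. Cyc1, cytochrome c1 of complex III, read 2633, 2599 and 3451 in Runx1-WT mice and 2987, 2838 and 3322 in Runx1-null mice, a log2 difference of 0.085 with a standard error of 0.15. Cycs, the soluble carrier cytochrome c, read 5079, 5820 and 5264 in Runx1-WT mice and 6798, 5426 and 5298 in Runx1-null mice, a log2 difference of 0.11 with a standard error of 0.12. The genotypes overlapped for each gene, and the first Runx1-null mouse was the highest of the 6 for Cycs. Without that mouse Cycs stood at -0.0045, and without the second Runx1-WT mouse Cyc1 stood at 0.013. The 3 Cycs probe sets above the filter stood between 0.10 and 0.20, and the genotypes did not overlap in 1 of them, with Runx1-null cells higher.

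Complex IV, cytochrome c oxidase, had a median of -0.038 over 13 tested genes, 3 above 0 and 10 below. Its common isoforms were close to 0. Cox4i1, the regulatory subunit that is the usual form outside hypoxic and lung tissue, read 8436, 8486 and 8076 in Runx1-WT mice and 7916, 7805 and 8185 in Runx1-null mice, a log2 difference of -0.064 with a standard error of 0.050. Cox6a1 stood at 0.042, Cox6b1 at -0.016, Cox7a2 at -0.038 and Cox8a at -0.059. The genotypes overlapped for all 5.

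The tissue-restricted isoforms gave the widest differences. Cox6b2, the form of subunit 6b known from testis, read 760.9, 591.3 and 371.7 in Runx1-WT mice and 313.3, 218.5 and 455.8 in Runx1-null mice. Its log2 difference was -0.81 with a standard error of 0.37 (exact permutation p = 0.20), and the genotypes overlapped because the third Runx1-null mouse lay above the third Runx1-WT mouse. Between these 2 mice, which had the higher animal numbers, the log2 difference was 0.29.

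Cox7a1, the form of subunit 7a in heart, skeletal muscle and brown fat, read 806, 606.2 and 918.5 in Runx1-WT mice and 680, 565.1 and 332.9 in Runx1-null mice. Its log2 difference was -0.60 with a standard error of 0.31 (exact permutation p = 0.20), and the first Runx1-null mouse lay between the Runx1-WT mice. After scaling on the median of all probe sets it was the only gene of the 90 whose genotypes did not overlap. The third Runx1-null mouse, lowest for Cox7a1, was also lowest for the stromal fibroblast markers, whose mean log2 level there was 1.08 below the mean of the 6 mice. The 9 stromal markers had a median of -0.58, with sums of 14310 to 16210 units in Runx1-WT and 5397 to 13630 in Runx1-null mice, and none was at the floor on all arrays. The 2 tested muscle markers, Ckm and Mb, stood at -0.20 and -0.26, and the 4 tested adipocyte markers had a median of -0.18. The adipocyte mean ran the other way in the third Runx1-null mouse, where it was 0.24 above the mean of the 6 mice, against -0.25 and -0.28 in the other Runx1-null mice. The part of these cells in the Cox7a1 values was not tested.

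Cox4i2, the form of subunit 4 known from lung and hypoxic cells, read 80.42 to 130.4 in Runx1-WT mice and 83.03 to 113 in Runx1-null mice, with a log2 difference of 0.044. Among the isoforms under the filter, Cox7b2 was at or below the floor on all 6 arrays. Cox7c, a common subunit, was measured by a dim probe set that read 189 to 526.4 units, and its difference of 0.14 had a standard error of 0.39. Its value is the least precise of the common subunits.

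**Figure D3:**
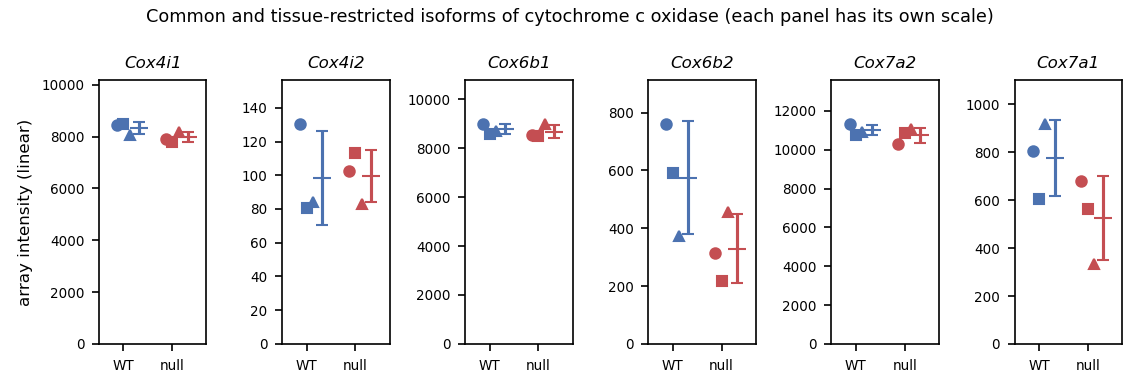
Array intensity (linear, from 0, a separate scale in each panel) of 3 common subunits of cytochrome c oxidase and their tissue-restricted isoforms; points are single mice (circle, square and triangle for mouse 1, 2 and 3; blue Runx1-WT, red Runx1-null) and bars give mean and SD, n = 3. Cox4i1, Cox6b1 and Cox7a2 stay within a narrow range, whereas Cox6b2 spans 218.5 to 760.9 and Cox7a1 spans 332.9 to 918.5, with overlapping genotypes.

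Cox7a2l matches the prefix of complex IV and encodes a supercomplex factor rather than a subunit. It read 9021, 8870 and 8912 in Runx1-WT mice and 8289, 8321 and 8642 in Runx1-null mice, a log2 difference of -0.086 with a standard error of 0.045. All 3 of its probe sets separated the genotypes, at -0.15, -0.12 and -0.086. With each array scaled to the median of all probe sets the sign turned, to 0.0049.

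Complex V, whose 17 genes are all subunits, had differences of -0.11 to 0.078, with a median of -0.034, 5 above 0 and 12 below. Over subunits alone, the range was -0.096 to -0.014 for the 4 of complex II and -0.064 to 0.14 for the 9 of complex IV. The 5 genes of F1, the catalytic head, had a median of 0.018. Atp5b, the catalytic beta subunit, stood highest, with 8262, 8021 and 8206 in Runx1-WT mice and 8781, 8151 and 8944 in Runx1-null mice. Its log2 difference was 0.078 with a standard error of 0.054, and the 95% interval of its fold was 0.966 to 1.15. Atp5a1, the alpha subunit, stood at 0.023, and Atp5c1, the central stalk gamma subunit, at -0.076. With arrays scaled to the median of all probe sets, Atp5c1 turned to 0.015.

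The c subunit, which forms the rotating ring in the membrane, is encoded by 3 genes that yield the same mature protein. Atp5g1 read 4325, 4154 and 5099 in Runx1-WT mice and 4851, 4751 and 4441 in Runx1-null mice, a log2 difference of 0.053. Atp5g2 read 5300, 4895 and 5094 in Runx1-WT mice and 4641, 4816 and 4670 in Runx1-null mice, a difference of -0.11 with a standard error of 0.073. Atp5g3 stood at 0.011. Only Atp5g2 had genotypes that did not overlap, and the differences between the 3 genes were not tested. Among the peripheral and accessory subunits, Atp5md, a small subunit of the dimer interface, stood at -0.081 with a standard error of 0.080.

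The subunits were measured with a small spread between mice, which sets the precision of the differences. The median SD between mice of 1 genotype was 0.082 on the log2 scale over the 74 tested subunits, against 0.27 over all genes tested. It was 0.14 over the 1232 other genes whose mean lay between 3845 and 6881 units, the middle of the subunits' own range. The 74 subunits also include genes brighter and dimmer than this band, and the part of brightness in the spread was not tested. By complex the median SD was 0.053 for complex V, 0.065 for complex IV, 0.083 for complex I, 0.094 for complex II and 0.11 for complex III. For the 16 assembly and tissue-restricted genes the median SD was 0.27, the value of all genes. For 72 of the 74 subunits (97.3%), the 95% limma interval of the difference lay within 1.5-fold in either direction, against 36.2% of all genes and 86.5% of those of like intensity. The exceptions were Cox7c and Ndufb1, both measured by dim probe sets. A log2 difference beyond 0.2 was found for 1 subunit, Ndufa6 (1.35%), against 34.3% of all genes and 9.58% of those of like intensity. The members' brightest values, 10850 to 12040 units, lay under the highest values of the arrays, 17255 to 18153.

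**Figure D4:**
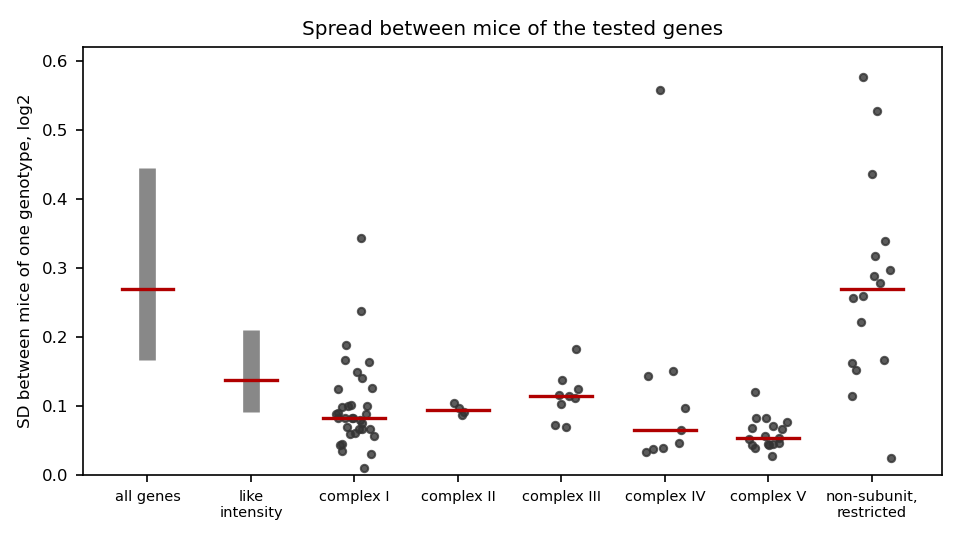
Standard deviation of log2 intensity between mice of 1 genotype, pooled over both genotypes, for each tested gene (points); red bars are medians, and for all 12151 genes tested and 1232 other genes of like intensity the grey bars span the 25th to 75th percentile. Subunits of complex V lie lowest, with a median of 0.053, and the assembly and tissue-restricted genes reach the median of all genes, 0.27.

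In the values as deposited, many subunits shared the order of the mice. Array medians over the tested genes ran from 9.862 to 10.031 on the log2 scale. The ranks and list means below were not examined under other scalings. The third Runx1-WT mouse was the highest of the 6 for 30 of the 74 subunits (40.5%, against 24.5% of all genes), and the first Runx1-null mouse was the lowest for 30 (40.5%, against 23.9%). The second Runx1-null mouse was the highest for 0 subunits, against 11.7% of all genes. The second Runx1-WT mouse was the lowest for 21 (28.4%), close to its share of all genes, 25.1%. The mean log2 level of the subunits, as a deviation from the mean of the 6 mice, was 0.018, -0.016 and 0.061 in Runx1-WT mice and -0.060, -0.032 and 0.028 in Runx1-null mice. The third Runx1-null mouse thus lay above 2 of the Runx1-WT mice. Among the 5 complexes, the mean separated the genotypes only for complex IV, with -0.003 to 0.14 in Runx1-WT and -0.10 to -0.036 in Runx1-null mice. Without its 3 tested tissue-restricted isoforms the other 10 genes overlapped, with -0.024 to 0.041 in Runx1-WT and -0.049 to 0.051 in Runx1-null mice, and the third Runx1-null mouse was the highest of the 6. Leaving out single mice moved the median of the 90 genes between -0.069, without the second Runx1-WT mouse, and -0.023, without the third. Without the third Runx1-WT mouse the medians of complexes I, II and III came to -0.011, -0.0012 and 0.0061, so that of complex III turned its sign.

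Proliferation genes differed widely between mice, in another order. The mean of 15 DNA replication and mitosis genes deviated by 0.34, -0.78 and 1.05 in Runx1-WT mice and by 1.49, -0.65 and -1.44 in Runx1-null mice. The first Runx1-null mouse was thus highest for these genes and lowest for the subunits, whereas the third Runx1-WT mouse was high for both. That Runx1-WT mouse also had the highest leukocyte markers, at 1.38 above the mean. For RNA integrity, the 3′ control probe set of Gapdh exceeded the 5′ one by 0.46 to 0.47 on the log2 scale in Runx1-WT mice and by 0.47 to 0.61 in Runx1-null mice (exact permutation p = 0.10), and for actin the exact permutation p was 0.80. The part of proliferation, of leukocytes and of RNA integrity in the subunits' values was not tested.

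**Figure D5:**
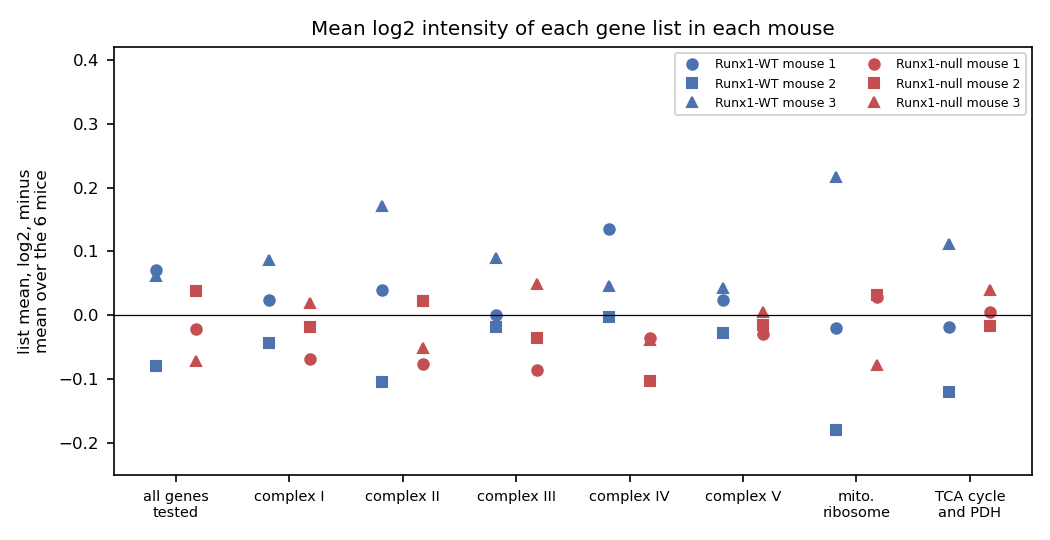
Mean log2 intensity (values as deposited) of each list in each mouse, as a deviation from its mean over the 6 mice. Blue points are Runx1-WT and red points Runx1-null mice (circle, square and triangle for mouse 1, 2 and 3). The genotypes overlap for each list shown except complex IV, where they overlap too once the 3 tissue-restricted isoforms are left out (-0.024 to 0.041 against -0.049 to 0.051), and the third Runx1-WT mouse is highest or close to it in most lists, as high as 0.22 for the mitochondrial ribosomal proteins.

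No other list of mitochondrial genes had a gene past the test. The 16 tested genes of the TCA cycle and pyruvate dehydrogenase, which supply the chain with NADH and succinate, had a median of 0.017, with 10 above 0 and 6 below, and 0 passed the test. Dlst, the succinyltransferase of the 2-oxoglutarate dehydrogenase complex, stood highest at 0.15 and Pdha1, the alpha subunit of pyruvate dehydrogenase, lowest at -0.11. The 26 tested assembly factors outside the prefix rule had a median of -0.0051 (12 above 0, 14 below), with Lrpprc, which stabilizes mitochondrial mRNAs, at 0.26 and Ttc19, a complex III factor, at -0.26. The 9 tested carriers and channels had a median of -0.016, from Phb2, a prohibitin of the inner membrane, at 0.069 to Vdac1, the outer membrane channel, at -0.048. The 76 mitochondrial ribosomal protein genes had a median of -0.025, with 31 above 0 and 45 below. All adjusted p-values were over 0.05 in these lists. The genotypes did not overlap for 2 of the 76 ribosomal protein genes (2.63%, against 5.56% of all genes tested). Of these, 1 was higher and 1 lower in Runx1-null cells. In the other lists of this paragraph 0 genes had genotypes that did not overlap.

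Of the 13 tested regulators of mitochondrial biogenesis, 8 lay above 0 and 5 below, with a median of 0.066, and 0 passed the test. Polrmt, the mitochondrial RNA polymerase, stood highest at 0.35 with a standard error of 0.30. Ppargc1a, the coactivator PGC-1 alpha, stood lowest, with 112.4, 113.9 and 111.3 in Runx1-WT mice and 30.72, 63.6 and 122 in Runx1-null mice. Its log2 difference was -0.86 with a standard error of 0.51, the third Runx1-null mouse was the highest of all 6, and the values lie close to the filter. Nrf1, Gabpa and Yy1, which encode factors whose letters were searched in the promoters, stood at -0.060, 0.094 and 0.025. The 22 tested genes with the NRF1 letters had a median of -0.040 and the 54 without them -0.051. For the RUNX letters the medians were 0.0020 over 9 genes and -0.047 over 67, and these differences were not tested.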

How the data were processed

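RNA from sorted YFP+ luminal MECs of 3 Runx1-WT and 3 Runx1-null mice was measured on Affymetrix arrays. The authors normalized the arrays with dChip, and the deposited values are linear intensities for 45101 probe sets. The dChip version is not given in the sources used here. All deposited columns were used (0 left out), and arrays have no counts, so the number of mice limits the precision. Of the probe sets, 34958 had 1 gene symbol in the platform annotation, 932 several and 9211 none. The probe set with the highest mean over the 6 arrays stood for each gene. Of the 48 oxidative phosphorylation genes with several probe sets above the filter, 11 had probe sets whose differences had opposite signs. Values were floored at the pooled 20th percentile and log2 was taken. Genes whose probe set had a mean at or above the 40th percentile of probe set means (73.48) were tested with limma 3.58.1 in R 4.3.3 (lmFit and eBayes with trend, two-sided, Benjamini-Hochberg adjustment, threshold 0.05). Mice were numbered in accession order. Single genes were also compared by a two-sided exact permutation test over the 6 mice. The limma step was tested on simulated data. Probe sets of different genes were not compared in level, and probe sets of near-identical copies can share signal.

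The members and lists were chosen with earlier results of these data known. Named genes were drawn by a rule, and not every gene it picked is described above. The rule took the 3 highest and 3 lowest differences of complexes I, III, IV and V, all of complex II, Cycs and Cyc1. It also took the 10 smallest p among non-overlapping genes (8 exist), and the tissue-restricted isoforms with their common partners. The c subunit genes and the 2 highest and 2 lowest of other lists completed it. Ndufv1, Uqcrc1, Uqcrc2, Uqcrfs1, Nrf1, Gabpa and Yy1 were named for their roles where this rule does not cover them. Alternatives were the filter, quantile normalization, median scaling, a pseudocount of 5.04, animal number range as a block, the omission of single mice, no trend, the methods' t-test and the mean over probe sets. Scaling on the median of the tested genes, fits within each range of animal numbers and the mean of complex IV without its tissue-restricted isoforms were chosen after seeing the data. Protein sequences were not used here.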

Additional observations from a re-analysis of the deposited data

How the results depend on the processing

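In the values as deposited, the Runx1-null minus Runx1-WT difference in array medians was -0.091 on the log2 scale over all probe sets and -0.022 over the tested genes. Scaling to the median of all probe sets turned the medians to 0.0522 for the 90 genes, 0.0346 for complex I, 0.0304 for complex II, 0.0598 for complex III, 0.0534 for complex IV and 0.0568 for complex V, left 1 gene with separated genotypes, and turned the signs of Atp5c1 (0.0149), Atp5md (0.0104), Cox4i1 (0.0267) and Cox7a2l (0.0049). Over all genes, 3.48% had separated genotypes after this scaling. Scaling on the tested genes left 0 of the 90 separated, against 5.74% of all genes, with a median of -0.017. Quantile normalization kept 6 of the 8 separated genes among its 11, against 5.42% of all genes. The 2 mice of the upper range of animal numbers, 1 of each genotype, gave the opposite sign for Atp5c1 (0.0059), Cox4i1 (0.0193), Cox6b2 (0.2942), Ndufa6 (0.0372), Ndufaf4 (-0.191), Sdha (0.08) and Sdhaf4 (0.1099). The median of the 90 genes was -0.043 over the 4 mice of the lower range and -0.031 between these 2, where all genes stood at 0.014 and -0.092. Relative to all genes the 90 thus stood at -0.056 and 0.062, so the sign turned. A turn of direction was counted only for the 18 of 43 named genes whose difference exceeded its standard error. Of the alternatives of all 43 genes 736 kept the direction or moved by less than the spread between mice, 25 moved by more and 11 turned. No alternative gave a gene past the adjusted threshold. The number of genes with an unadjusted p under 0.05, 234 as reported, ranged from 78 without the first Runx1-WT mouse to 818 without the third, and was 123 with median scaling, 535 with no filter, 305 with the animal number range as a block and 1866 in the lower range alone. Among the members it was 3 of 96 with no filter, against 535 of 18193 genes. Without the third Runx1-null mouse it was 3 of 90, against 579 of 12151 genes. In the lower range alone it was 6 of 90, against 1866 of 12151 genes. The cause of these shifts was not tested. No paired analysis was possible because the labels do not give the litter of each mouse. The largest spreads between mice were those of Sdhaf1, Cox7c and Cox6b2.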
